A study of Saccharomyces cerevisiae with 7 samples.

Results

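The last interval of a diauxic shift, between 18.5 h and 20.5 h, was examined gene by gene in budding yeast. Members were all genes with a value on both arrays, 5288 of the 5470 genes of the table. For each gene the log2 ratio on the 18.5 h array was subtracted from that on the 20.5 h array. The genes left out were 182, of which 177 were blank at 20.5 h and 5 were blank at 18.5 h.

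The study followed total RNA of Saccharomyces cerevisiae growing on glucose through 7 time points on 7 arrays of 2 channels. The culture was at 7.3 OD with 0 g/L glucose at 20.5 h, and at 6.9 OD with 0.2 g/L at 18.5 h. The earlier samples were taken at 0 h (0.14 OD, 19 g/L), 9.5 h (0.46 OD, 18.7 g/L), 11.5 h (0.80 OD, 17.6 g/L), 13.5 h (1.8 OD, 14 g/L) and 15.5 h (3.7 OD, 7.5 g/L). The common reference in channel 1 of every array was RNA from a culture with 19 g/L glucose left, at 0.14 OD. The labels name no strain, medium or flask, so whether the samples came from 1 flask or several is not given. Time, OD and glucose moved together, each array had a lot of its own, and these cannot be told apart.

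Levels are given as log2 of culture over reference, after each array was centred on its median, so that 1 is 2-fold above the reference. Neither the dyes nor the base of the logarithm is named in the labels. The base was read from the values, and the direction, culture over reference, is likely and not certain. There was 1 array a side, so no test was possible and no p-value is given. A gene is said to have risen or fallen where its difference, 20.5 h minus 18.5 h, was at least 1, which is 2-fold. The measurement error that the arrays show is the spread between spots of one gene, an SD of 0.43 for the difference over 143 spots of 70 genes. It leaves out variation between cultures and hybridisations. Among these 70 genes, 10 had any spot past 2-fold, and 3 had every spot past 2-fold the same way. The largest gap between spots of one gene was 1.78. Only 75 of the 5288 genes had several spots, so most calls rest on 1 spot.

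Yeast grown on glucose ferments it to ethanol and represses genes for other carbon sources. When glucose is gone, ethanol is oxidised through acetaldehyde and acetate to acetyl-CoA. Cells then need the glyoxylate cycle to build four-carbon acids from acetyl-CoA, and gluconeogenesis to make sugar phosphates. The kinase Snf1 relieves the repression, and the activators Cat8, Sip4 and Adr1 and the Hap complex act on many of these genes.

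Between 18.5 h and 20.5 h, 168 genes rose (3.18% of those tested) and 108 fell (2.04%), so 5.22% moved at least 2-fold either way. Over the 4807 genes with all 7 values, 254 moved in this interval (5.28%), against 925 in the interval before it (19.2%). The 4 earlier intervals had 58, 182, 39 and 56 such genes in order of time (1.21%, 3.79%, 0.811% and 1.16%). The last interval was thus the second largest of the 6 by this count. The SD of the difference over all genes was 0.53, a little above the SD between spots, and the median difference was -0.06.

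The 276 genes that moved were split by where they stood at 18.5 h. A new rise was a gene within 2-fold of the reference at 18.5 h and at least 2-fold above it at 20.5 h. There were 48 of these, with a median level of 1.74 at 20.5 h against 0.24 at 18.5 h. Another 27 genes were already at least 2-fold above the reference and rose further, with medians of 2.83 at 20.5 h and 1.44 at 18.5 h. Genes returning from below, 51 in all, had been at least 2-fold under the reference at 18.5 h and had a median of -0.18 at 20.5 h against -1.45 at 18.5 h. A further 42 rose while staying within 2-fold of the reference at both times.

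Among the genes that fell, 32 were new falls, within 2-fold of the reference at 18.5 h and at least 2-fold under it at 20.5 h. Their medians were -1.60 at 20.5 h and -0.43 at 18.5 h. Only 8 genes continued an earlier fall. The largest group of the falling genes, 38, was returning from above, with a median of 0.78 at 20.5 h against 2.16 at 18.5 h. The other 30 fell within 2-fold of the reference, and 0 genes crossed from one side of the 2-fold band to the other. These classes were made from the same 2 arrays as the difference, so their medians are descriptions.

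**Figure D1:**
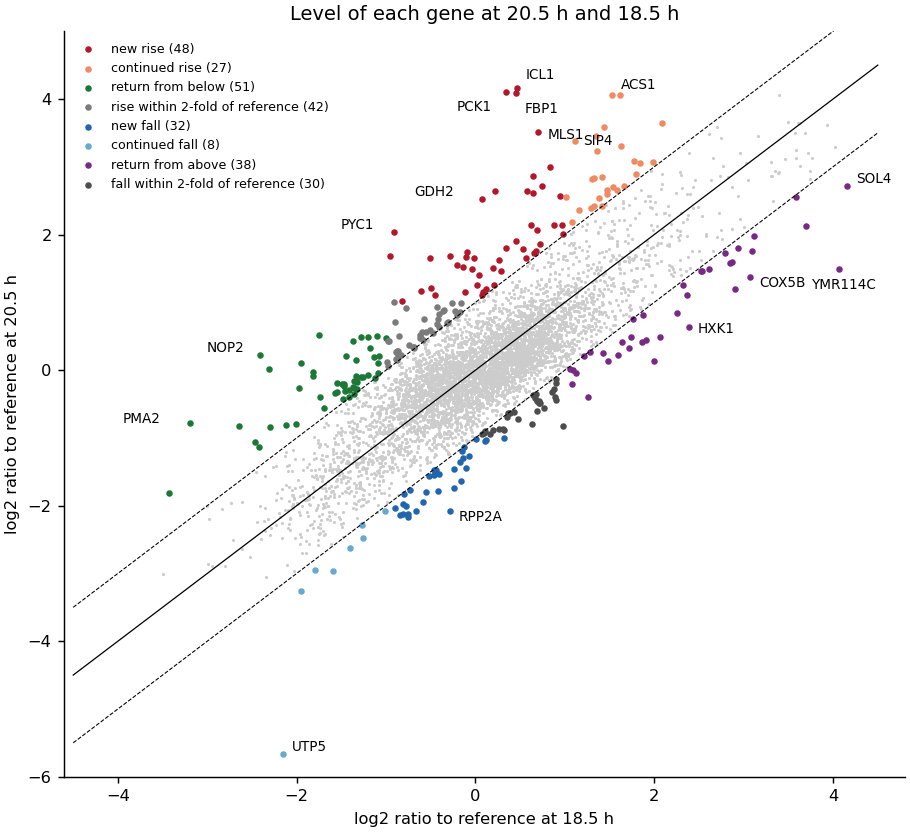
Level of each of the 5288 genes at 20.5 h (vertical axis) and at 18.5 h (horizontal axis), both as log2 ratios to the reference. The solid line marks equal levels and the dashed lines 2-fold differences. Colours mark the 8 classes with their numbers of genes. ICL1, PCK1 and FBP1 stand at the top near a level of 4 at 20.5 h, far from the line, while UTP5 is alone at the bottom at -5.67.

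Whether a gene rose only now was read from the 5 earlier arrays, which the rule did not use. Of the 48 new rises, 43 had a value on all 5 earlier arrays, and 37 of these were within 2-fold of the reference on each array. Of the 32 new falls, 30 had a value on all 5, and 26 of these were within 2-fold on each. Genes with a blank on an earlier array were left out of these counts. Most genes lay within 2-fold early on. Of 5227 genes with a value at 15.5 h, 183 were at least 2-fold above the reference and 106 at least 2-fold under it. The share of all genes within 2-fold on all 5 earlier arrays was not counted, so these counts are not read as a trait of the classes. Of the 38 genes returning from above, 34 had a value on all 5, and 16 of these had stayed within 2-fold of the reference up to 15.5 h. Of all 38, 17 were already at least 2-fold above the reference at both 15.5 h and 18.5 h. New rises had a median of 0.08 at 15.5 h, while genes returning from above had one of 0.79.

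The 3 largest rises of the 5288 genes were in enzymes that mark the switch to sugar synthesis. PCK1 (YKR097W), phosphoenolpyruvate carboxykinase, which makes phosphoenolpyruvate from oxaloacetate, stood at 4.10 at 20.5 h and 0.34 at 18.5 h, a difference of 3.76 or 13.6-fold. On the earlier arrays it read -0.12, -0.16, 0.15 and 0.11, in order of time, and it was blank at 11.5 h. FBP1 (YLR377C), the fructose bisphosphatase of gluconeogenesis, was at 4.10 at 20.5 h and 0.45 at 18.5 h, 12.5-fold higher. Its earlier values ran from -0.25 to 0.30. Both genes thus stayed within 2-fold of the reference while glucose fell to 0.2 g/L, and were far above it 2 hours later.

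ICL1 (YER065C), isocitrate lyase, opens the glyoxylate cycle by splitting isocitrate. Its level was 4.17 at 20.5 h and 0.46 at 18.5 h, a 13.04-fold difference, after earlier values between -0.01 and 0.48. MLS1, the malate synthase that closes the cycle, was at 3.51 at 20.5 h and 0.70 at 18.5 h. CIT2, the peroxisomal citrate synthase that feeds the cycle, was at 2.58 at 20.5 h and 0.94 at 18.5 h. Both were within 2-fold of the reference at 18.5 h, but CIT2 had been at -0.83 at 15.5 h, so much of its climb came before 18.5 h.

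Pyruvate carboxylase, which makes oxaloacetate from pyruvate, has 2 genes, and they ran below the reference before they rose. PYC1 was at 2.04 at 20.5 h and -0.91 at 18.5 h, after 0.10, 0.29, -1.18, -0.64 and -0.56 at the 5 earlier times. PYC2 was at 1.65 at 20.5 h and -0.51 at 18.5 h. PYC2 had 2 spots, with differences of 1.92 and 2.40, so both showed the rise. The sequences of the 2 genes are much alike, and cross-hybridisation between them cannot be told apart from a rise of each.

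Over the whole list for gluconeogenesis and the glyoxylate cycle, 10 of 11 genes were measured, 8 rose and 0 fell, against 3.18% and 2.04% of all genes. All 10 were higher at 20.5 h, and the median difference was 2.49 against -0.06 over all genes. IDP2, the cytosolic NADP-dependent isocitrate dehydrogenase, was the 1 continued rise, at 3.58 at 20.5 h and 1.44 at 18.5 h. The 2 members that did not reach 2-fold were MDH2, the cytosolic malate dehydrogenase, with a difference of 0.66, and ICL2, a mitochondrial relative of isocitrate lyase, with 0.47. The list was drawn up with earlier results of these data known, so its count is a description.

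**Figure D2:**
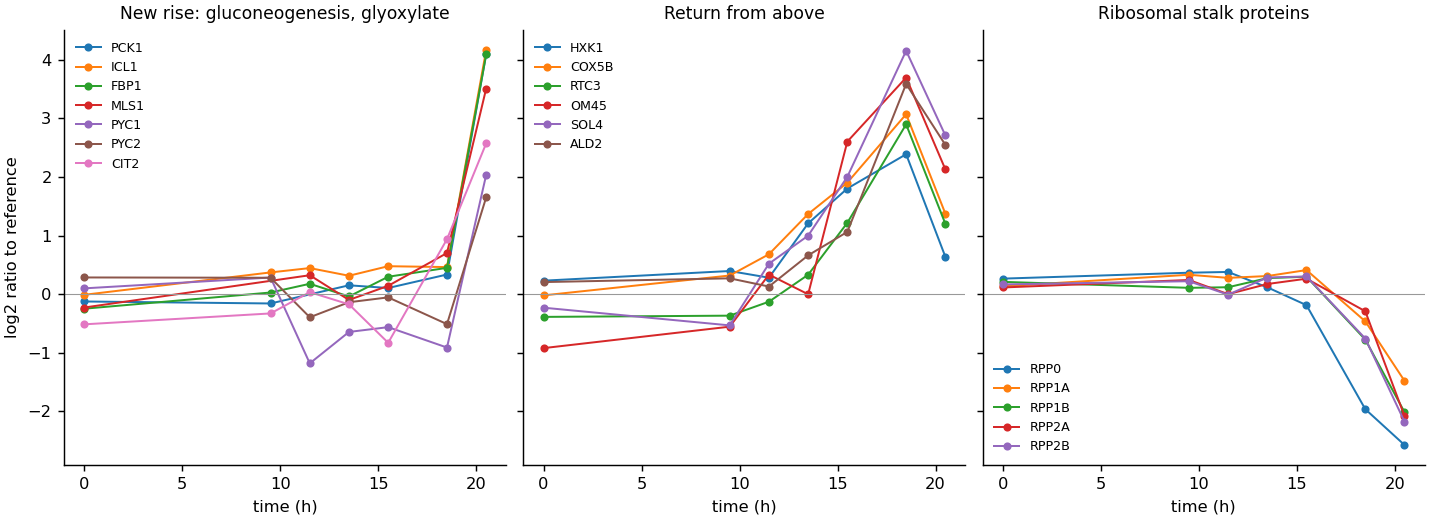
Log2 ratio to the reference (vertical axis) against time in hours (horizontal axis) for 3 sets of genes, 1 point per array, with blanks skipped. The left panel shows new rises of gluconeogenesis and the glyoxylate cycle, of which PCK1, ICL1 and FBP1 stayed between -0.25 and 0.48 up to 18.5 h while PYC1 and CIT2 moved below and, for CIT2, above the reference before. The middle panel shows genes that peaked at 18.5 h and came back, and the right panel the 5 stalk proteins of the ribosome, which were all lower at 20.5 h than at 18.5 h.

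Acetate enters metabolism through acetyl-CoA. ACS1, the acetyl-CoA synthetase gene repressed by glucose, was at 4.05 at 20.5 h and 1.52 at 18.5 h, a 5.77-fold rise that continued one already begun. YAT2, a carnitine acetyltransferase that passes acetyl groups between compartments, was at 3.45 at 20.5 h and 1.35 at 18.5 h. The other carnitine acetyltransferase genes of the list, YAT1 and CAT2, were named after their values were seen. Their differences were -0.145 and 0.84, under 2-fold. Aldehyde dehydrogenase genes moved in opposite directions. ALD6, the main cytosolic enzyme on glucose, was at -0.36 at 20.5 h and -1.36 at 18.5 h, a return from below. ALD2, a cytosolic form induced by stress, was at 2.55 at 20.5 h and 3.59 at 18.5 h, a return from above. Both changes were just past 2-fold, and each was just short of it under at least 1 other setting of the processing, with smallest differences of 0.96 for ALD6 and -0.97 for ALD2. Of 11 genes on this list 3 rose and 1 fell, against 3.18% and 2.04% of all genes, and the median difference was 0.73.

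Carriers for other carbon sources showed both early and late members. ADY2, an acetate transporter, was at 3.001 at 20.5 h and 0.83 at 18.5 h. STL1, the glycerol-proton symporter, was at 2.65 at 20.5 h and 0.22 at 18.5 h, having been under the reference on all 5 earlier arrays. SFC1, the mitochondrial carrier that exchanges succinate for fumarate, was at 4.05 at 20.5 h and 1.62 at 18.5 h. JEN1, the lactate and pyruvate permease, was by contrast already high, at 4.06 at 20.5 h and 3.40 at 18.5 h, after 0.31 at 15.5 h (JEN1 was named after its values were seen). Of these 13 genes 3 rose and 0 fell, against 3.18% and 2.04% of all genes, with a median difference of 0.67, and DLD1, the mitochondrial lactate dehydrogenase, had 0.996, just under 2-fold.

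The transcripts of most regulators stayed within 2-fold of their 18.5 h level. SIP4, a zinc-cluster activator of gluconeogenic genes, was the 1 of 23 regulators past 2-fold (5.22% over all genes). It was at 3.38 at 20.5 h and 1.11 at 18.5 h. CAT8, which activates SIP4, was at 0.60 at 20.5 h and 0.25 at 18.5 h, and had not left the 2-fold band on any array. ADR1, the activator of alcohol and fatty acid use, was at 1.87 at 20.5 h and 1.07 at 18.5 h. HAP4, the regulated subunit of the Hap complex, was at 3.42 at 20.5 h and 2.75 at 18.5 h, and had been near 2-fold above the reference or higher since 11.5 h. GIS1, which acts after the kinase Rim15, had a difference of 0.77.

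The rest of this list lay between -0.67 and 0.60. SNF1 itself had a difference of 0.48 and its activating subunit SNF4 one of -0.39. The repressors MIG1, MIG2 and MIG3 had -0.06, 0.24 and -0.30. HXK2, the hexokinase that also acts in glucose repression, had the lowest value of the list, -0.67, at -0.93 at 20.5 h and -0.27 at 18.5 h. TUP1, the corepressor, had 0.52 and MSN2, a stress activator, 0.56, with MSN2 still under the reference at -1.49 at 20.5 h and -2.05 at 18.5 h. The other differences were 0.47 for RDS2, 0.46 for HAP3, 0.29 for GAL83, 0.09 for SIP2, -0.03 for SIP1, -0.06 for HAP5, -0.16 for REG1, -0.28 for GLC7, -0.10 for MSN4 and 0.60 for RIM15. None of these reached 2-fold, and mRNA levels do not report the activity of these proteins.

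In the mitochondrion, 12 of 16 genes of the tricarboxylic acid cycle were at least 2-fold above the reference at 18.5 h (11.8% over all genes). Their median level was 2.30 at 20.5 h, against 1.87 at 18.5 h, 14 of 16 were higher at 20.5 h (2385 of 5288 over all genes), and 3 rose and 0 fell (3.18% and 2.04% over all genes). KGD1, a subunit of 2-oxoglutarate dehydrogenase, was at 3.24 at 20.5 h and 1.35 at 18.5 h. KGD2, another subunit of that enzyme and named after its values were seen, had a difference of -0.245. FUM1, fumarase, was a new rise at 2.14 at 20.5 h against 0.88 at 18.5 h. ACO1, aconitase, was at 2.90 at 20.5 h and 1.80 at 18.5 h, with 0.98 as the lowest difference under other settings. SDH3, a subunit of succinate dehydrogenase, had a difference of 0.98, just short of 2-fold.

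The respiratory chain had a median of 2.19 at 20.5 h, against 1.66 at 18.5 h, with 17 of 21 genes higher (2385 of 5288 over all genes), 3 risen and 1 fallen (3.18% and 2.04% over all genes). NDE2, an external NADH dehydrogenase, had a difference of 1.09, COR1, a core subunit of the cytochrome bc complex, 1.06, and CYT1, cytochrome c1, 1.07. All 3 were continued rises and lay close to the threshold, and the lowest values under other settings were 0.82 for NDE2, 0.93 for COR1 and 0.68 for CYT1. COX5B went the other way. This gene encodes the form of a cytochrome oxidase subunit used at low oxygen, and it was at 1.38 at 20.5 h and 3.07 at 18.5 h, after a climb through 0.68, 1.37 and 1.91 at 11.5, 13.5 and 15.5 h. ATP1 and ATP2, the alpha and beta subunits of the ATP synthase, rose by 1.103 and 1.21. Of 11 measured genes of that enzyme 10 were higher at 20.5 h (2385 of 5288 over all genes).

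Peroxisomal fatty acid oxidation had a median difference of 0.42 over 17 genes, with 1 rise and 0 falls (3.18% and 2.04% over all genes). The rise was IDP3, the peroxisomal NADP-dependent isocitrate dehydrogenase, at 2.43 at 20.5 h and 1.41 at 18.5 h, and its lowest difference under other settings was 0.87. ECI1, an enoyl-CoA isomerase, had the lowest difference, -0.69. FAT3, linked to fatty acid uptake, was among the 8 largest continued rises at 3.65 at 20.5 h and 2.09 at 18.5 h.

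Differences in sugar breakdown were small and mostly downward. Of 21 genes of glycolysis and ethanol fermentation 17 were lower at 20.5 h (2902 of 5288 over all genes). The median of the list was -0.64 at 20.5 h against -0.28 at 18.5 h, but only HXK1 fell by 2-fold (2.04% over all genes). Its median difference was -0.29, and -0.20 after adjustment for length, with 15 genes lower. HXK1, a hexokinase that is derepressed as glucose falls, was at 0.64 at 20.5 h and 2.39 at 18.5 h, after 0.28, 1.21 and 1.80 at 11.5, 13.5 and 15.5 h. GPM1, phosphoglycerate mutase, had a difference of -0.84, TPI1, triosephosphate isomerase, -0.81, and FBA1, aldolase, -0.68. ADH2, the alcohol dehydrogenase that oxidises ethanol, was level at -0.47 at 20.5 h and -0.43 at 18.5 h. ADH2 was named after its values were seen, and its sequence is so like that of the fermentative ADH1 that its spot may report both.

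HXT5, a hexose transporter made by slowly growing cells, was the 1 of 19 genes of hexose transport and sensing that moved (5.22% over all genes). It was at 3.31 at 20.5 h and 1.62 at 18.5 h. HXT6, a high-affinity transporter, was at 2.90 at 20.5 h and 2.09 at 18.5 h, and its near twin HXT7 may share its signal. HXT7, named after its values were seen, went the other way, at 1.84 at 20.5 h and 2.17 at 18.5 h, so the pair is reported as uncertain. SNF3, the sensor for low glucose, had a difference of 0.77.

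Storage carbohydrate genes had a median of 1.92 at 20.5 h, against 1.62 at 18.5 h, yet the median of their differences was -0.00, with 10 of 20 higher and 10 lower. Of the 20 genes 3 rose and 0 fell, against 3.18% and 2.04% of all genes, and the 3 that rose all break reserves down. GDB1, the glycogen debranching enzyme, was at 2.84 at 20.5 h and 1.42 at 18.5 h. ATH1, the acid trehalase, was at 1.79 at 20.5 h and 0.53 at 18.5 h. GPH1, glycogen phosphorylase, was at 0.69 at 20.5 h and -0.32 at 18.5 h. After centring within runs of 40 neighbouring probe numbers and adjustment for gene length these differences were 0.93 for GDB1, 0.52 for ATH1 and 0.80 for GPH1, all under 2-fold. GLG2, a glycogenin of glycogen synthesis, had a difference of 0.92, and 1.04 after both adjustments. Breakdown genes were thus not set apart from synthesis genes under that setting.

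**Figure D3:**
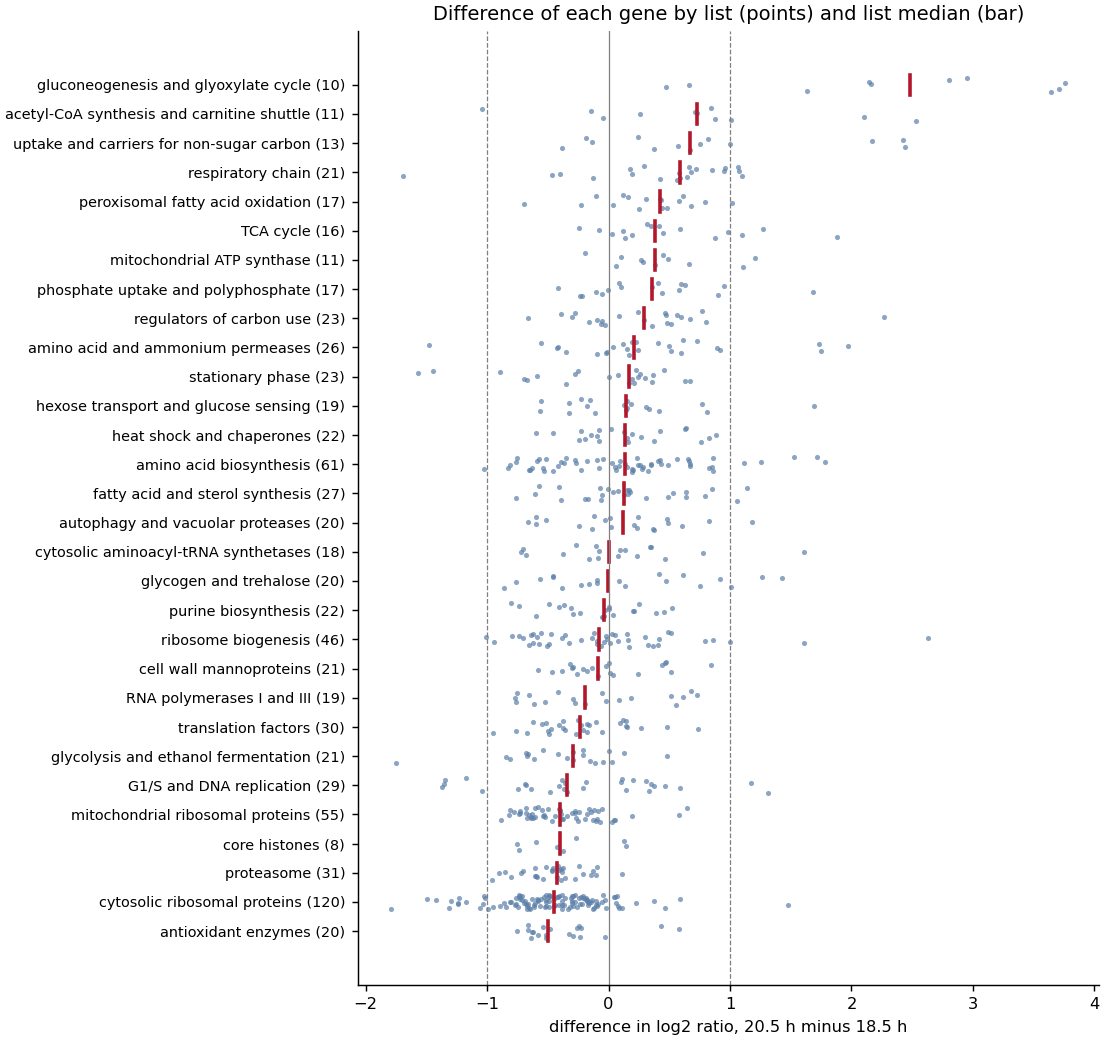
Difference in log2 ratio, 20.5 h minus 18.5 h (horizontal axis), for each measured gene of 30 lists (points, spread vertically for legibility) with the list's median as a bar and its number of genes in brackets. Dashed lines mark 2-fold. The list for gluconeogenesis and the glyoxylate cycle has the highest median, 2.49, and antioxidant enzymes the lowest, -0.50. After both adjustments for probe position and gene length, antioxidant enzymes are at -0.27, above proteasome genes at -0.41.

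The genes coming back from above included several that had been among the highest at 18.5 h. YMR114C was at 1.49 at 20.5 h and 4.07 at 18.5 h, the largest return, after 0.37 at 15.5 h. RTC3 was at 1.20 at 20.5 h and 2.90 at 18.5 h. OM45, a protein of the outer mitochondrial membrane, was at 2.13 at 20.5 h and 3.70 at 18.5 h. SOL4, a phosphogluconolactonase of the pentose phosphate pathway, was at 2.71 at 20.5 h and 4.16 at 18.5 h. OM45 and SOL4 remained more than 4-fold above the reference, so returning describes a direction and not an arrival. SUC2, the invertase gene, which was named after its values were seen, was at 1.60 at 20.5 h and 2.87 at 18.5 h.

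Other returns went nearly all the way. IRC3, a mitochondrial helicase, was at 0.13 at 20.5 h and 1.997 at 18.5 h. OMS1, a mitochondrial membrane protein, was at 0.49 at 20.5 h and 2.07 at 18.5 h. AMA1, an activator of the anaphase-promoting complex in meiosis, was at 0.44 at 20.5 h and 1.90 at 18.5 h, but its early values were erratic, with -4.51 at 9.5 h. FAR10, linked to pheromone arrest, went past the reference to -0.40 at 20.5 h, against 1.26 at 18.5 h.

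Seen from the other side, 626 genes were at least 2-fold above the reference at 18.5 h (11.8% of genes), and 407 of them, 65.0%, still were at 20.5 h. Their median difference was -0.25, with 27 that rose further and 38 that fell. Of the 614 genes at least 2-fold under the reference at 18.5 h (11.6%), 427 or 69.5% still were, with a median difference of 0.13, 51 that rose and 8 that fell. Since these genes were chosen on the 18.5 h array and that array enters the difference, its error leans toward return. Among the 140 genes at least 2-fold above the reference at both 15.5 h and 18.5 h, 123 or 87.9% still were at 20.5 h. In all, 574 genes were past 2-fold above the reference at 20.5 h (10.9%) and 607 under it (11.5%).

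The largest return from below was NOP2, an RNA methyltransferase of the large ribosomal subunit, at 0.22 at 20.5 h and -2.41 at 18.5 h, a 6.19-fold rise to above its level at 13.5 h (-1.07) and 15.5 h (-1.15). UTP22 and UTP10 belong to the processome that makes the small subunit. UTP22 was at 0.11 at 20.5 h and -1.95 at 18.5 h, and UTP10 at -1.82 at 20.5 h and -3.43 at 18.5 h. RKI1, the ribose phosphate isomerase of the pentose phosphate pathway, was at 0.01 at 20.5 h and -2.31 at 18.5 h. CNS1, a cochaperone of Hsp90, was at -0.83 at 20.5 h and -2.64 at 18.5 h.

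Some of these returns were in genes that have close relatives in the genome. PMA2, the minor plasma membrane proton pump, was at -0.78 at 20.5 h and -3.20 at 18.5 h, and its spot may also report the abundant PMA1. HEF3, a second elongation factor gene, was at 0.44 at 20.5 h and -1.36 at 18.5 h, while its major relative YEF3 was at -2.57 at 20.5 h and -1.61 at 18.5 h. ENA2, one of a tandem array of sodium pumps, had a difference of 1.80. FLC1, a membrane protein of the secretory pathway, was at 0.52 at 20.5 h and -1.75 at 18.5 h. ACC1, acetyl-CoA carboxylase, which starts fatty acid synthesis, had 2 spots with differences of 1.48 and 0.63, and its mean of 1.05 fell to 0.51 after both adjustments. RAP1, SFP1 and SCH9, which regulate ribosomal genes and growth, were named after their values were seen and had 1.46, 1.05 and 1.04. After both adjustments RAP1 had 1.16, while SFP1, at 0.66, and SCH9, at 0.88, were under 2-fold.

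The difference moved with gene length. Its Spearman correlation with gene length was 0.26 over 5288 genes of the same 2 hybridisations. The median difference was -0.15 in the shortest eighth of genes (78 to 567 bp) and 0.28 in the longest (2640 to 14733 bp). In the longest eighth 43 genes rose and 0 fell, and 17 of the 51 returns from below were there. The level at 18.5 h correlated with length at -0.18 and that at 20.5 h at -0.05. Position on the table moved with it as well, with medians of -0.19, 0.10, -0.17 and 0.11 in 4 successive equal runs of the 6400 probe numbers. The part of length or position in the counts was not tested. With length taken out by a running median, 168 genes rose, of which 137 were the same genes, and 77 fell, of which 71 were the same. With centring in runs of 40 probe numbers, 151 rose and 113 fell, of which 114 and 72 were the same genes.

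**Figure D4:**
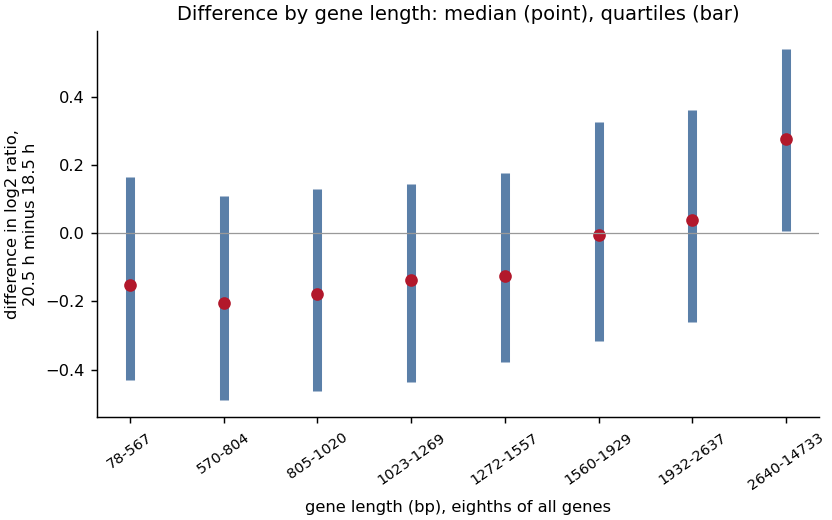
Median (point) and quartiles (bar) of the difference in log2 ratio, 20.5 h minus 18.5 h (vertical axis), in eighths of the genes by length in bp (horizontal axis). The median lies near -0.2 to -0.1 in the 5 shorter eighths and reaches 0.28 in the longest.

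Of 120 cytosolic ribosomal protein genes 103 were at least 2-fold under the reference at 18.5 h (11.6% over all genes). At 20.5 h 108 of the 120 were lower than at 18.5 h (2902 of 5288 over all genes), 13 fell and 1 rose, against 2.04% and 3.18% of all genes. Their median level was -1.94 at 20.5 h, against -1.51 at 18.5 h, having stood at 0.04 at 15.5 h, and the median difference was -0.45 (-0.31 after adjustment for length). The median length of these genes was 783 bp, against 1269 bp over all genes.

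The proteins of the ribosomal stalk, the acidic arm that recruits elongation factors, made up 4 of the 13. RPP2A was at -2.08 at 20.5 h and -0.29 at 18.5 h, the largest new fall. RPP2B was at -2.17 at 20.5 h and -0.76 at 18.5 h. RPP1A and RPP1B, named after their values were seen, fell by 1.01 and 1.24. RPP2A, RPP2B, RPP1A and RPP1B had thus all stayed within 2-fold of the reference at 18.5 h, when the median gene of the list was already at -1.51. Their anchor RPP0, also named afterwards, was at -2.57 at 20.5 h and -1.96 at 18.5 h.

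Most of the other falls on this list were in genes that have a second copy. The share of the 120 genes with a second copy was not counted, so this is not read as a trait of the falls. RPL16B fell by 1.23, RPS11A by 1.06 and RPL19B by 1.03, all continuing falls, and after both adjustments RPL16B stood at -0.91 and RPL19B at -0.49. RPS11A reached -0.89 at its weakest under other settings. RPS8A and RPS8B encode the same protein and gave opposite values. RPS8A was at -1.74 at 20.5 h and -0.24 at 18.5 h, whereas RPS8B was at 0.14 at 20.5 h and -1.34 at 18.5 h. Genes so alike share signal by hybridisation, so this pair is reported as uncertain. The remaining falls were RPL24A, RPL9B, RPL43A, RPS1A and RPS12, between -1.31 and -1.04, listed here to complete the count.

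Ribosome biogenesis as a list did not move one way. Of 46 genes 2 rose and 1 fell, shares near the 3.18% and 2.04% of all genes, 19 were higher and 27 lower, and the median was -1.78 at 20.5 h, against -1.55 at 18.5 h. Beside the rises of NOP2 and UTP10, the helicase gene DBP7 was at -1.14 at 20.5 h and -0.12 at 18.5 h. This fall weakened to -0.95 under 1 or more other settings. DBP7 had read -0.69 at 13.5 h and -1.06 at 15.5 h, so it had been 2-fold under the reference before 18.5 h. Outside the list, UTP5, another processome subunit, had the largest fall of all genes, at -5.67 at 20.5 h and -2.15 at 18.5 h, from 1 spot. RRP9 and PWP1, both for ribosomal RNA processing, continued to fall, by 1.31 and 1.16. ENP1 did so by 1.22, a size of 0.997 at its smallest under the other settings.

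The translation apparatus around the ribosome gave values under 2-fold. Translation factors had a median difference of -0.24 over 30 genes with 22 lower (2902 of 5288 over all genes), and 0 passed 2-fold in either direction. RNA polymerases I and III had -0.19 over 19 genes and 0 past 2-fold, with RPA34 and RPA49 of polymerase I at -0.77 and -0.76. Among 18 aminoacyl-tRNA synthetases the median was 0.00 and 1 rose (3.18% over all genes). The rise was YHR020W, the prolyl-tRNA synthetase by its similarity, at 0.51 at 20.5 h and -1.10 at 18.5 h. Its spot read 1.96 at 0 h, when culture and reference had the same OD and glucose, and was blank at 9.5 h and 11.5 h.

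Among lists whose median was above the reference at 18.5 h, 3 had nearly all their genes lower at 20.5 h, by less than 2-fold a gene. Mitochondrial ribosomal protein genes had a median of 0.36 at 20.5 h, against 0.85 at 18.5 h, with 49 of 55 lower. Proteasome genes had a median of 0.10 at 20.5 h, against 0.62 at 18.5 h, with 30 of 31 lower (2902 of 5288 over all genes), and SCL1, a subunit of the core particle, had the lowest difference, -0.96. Antioxidant enzymes had a median of 0.60 at 20.5 h, against 0.84 at 18.5 h, with 18 of 20 lower, and GRX1, a glutaredoxin, had -0.75. In all 3 lists 0 genes rose and 0 fell by 2-fold. Most of these genes are short, with median lengths of 714, 864 and 561 bp. After adjustment for length the medians of the differences were -0.29, -0.33 and -0.35, against -0.01 over all genes. With position also adjusted, antioxidant enzymes were at -0.27, proteasome genes at -0.41 and cytosolic ribosomal protein genes at -0.35.

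Heat shock genes and chaperones had a median difference of 0.14 over 22 genes, with 0 past 2-fold. Within them HSP60, the mitochondrial chaperonin, had 0.88, HSC82, the constitutive Hsp90, 0.83, and SSB1, a ribosome-bound Hsp70, 0.77. SSB2, the near-identical copy of SSB1 and named after its values were seen, had the lowest difference of the list, -0.60, so this pair too is uncertain. A list of genes known from stationary phase had 0.17 over 23 genes. It held 0 rises and 2 falls, OM45 and SOL4, against 3.18% and 2.04% of all genes. Autophagy and vacuolar proteases had 0.12 over 20 genes with 1 rise (3.18% over all genes). The rise was APE3, a vacuolar aminopeptidase, at 1.46 at 20.5 h and 0.28 at 18.5 h. The value of APE3 after both adjustments was 0.91.

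Among the 8 largest new rises was GDH2, the NAD-dependent glutamate dehydrogenase that releases ammonia from glutamate, at 2.52 at 20.5 h and 0.07 at 18.5 h. Its 2 spots had differences of 2.48 and 2.42. PUT1, proline oxidase, named after its values were seen, was at 2.87 at 20.5 h and 0.65 at 18.5 h. GLN1, glutamine synthetase, returned from below to -0.09 at 20.5 h, against -1.34 at 18.5 h. Its lowest difference under the other settings was 0.96.

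Amino acid biosynthesis had a median difference of 0.14 over 61 genes, with 5 rises and 1 fall (3.18% and 2.04% over all genes). ARG3, ornithine carbamoyltransferase, was at 1.67 at 20.5 h and -0.11 at 18.5 h. CPA1, the small subunit of the carbamoyl phosphate synthetase for arginine, was at 1.21 at 20.5 h and -0.50 at 18.5 h. LEU4, which makes the first intermediate of leucine from acetyl-CoA, was at 1.49 at 20.5 h and -0.04 at 18.5 h. Both ARG3 and CPA1 serve the same pathway, and neither had been 2-fold above the reference on any array before.

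Permeases for amino acids moved in both directions, 3 up and 1 down of 26 (3.18% and 2.04% over all genes). AGP1, a permease of broad range, was at 2.72 at 20.5 h and 0.75 at 18.5 h. DIP5, for the dicarboxylic amino acids, was at 1.55 at 20.5 h and -0.20 at 18.5 h. TAT1, for tyrosine and other amino acids, was at -0.09 at 20.5 h and -1.82 at 18.5 h. HIP1, the histidine permease, was a new fall at -1.64 at 20.5 h and -0.17 at 18.5 h.

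The list for the start of the cell cycle and DNA replication had 2 rises and 5 falls among 29 genes, against 3.18% and 2.04% of all genes, and a median difference of -0.35. CLN1 and CLN2 encode the paired cyclins of G1 and parted. CLN2 was at -1.95 at 20.5 h and -0.59 at 18.5 h, a new fall. CLN1 was at -0.81 at 20.5 h and -2.12 at 18.5 h, a return from below, with 0.99 as its lowest value under the other settings. CLB5, the S-phase cyclin, was at -0.45 at 20.5 h and 0.90 at 18.5 h, and CDC6, which loads the replicative helicase, was at -2.97 at 20.5 h and -1.60 at 18.5 h. RAD27, a nuclease of DNA replication, was at -0.88 at 20.5 h and 0.32 at 18.5 h. Core histones were lower for 6 of 8 genes (2902 of 5288 over all genes), with 0 past 2-fold.

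The medians of the lipid and phosphate genes lay under the reference at both times, at -0.61 and -0.72 at 20.5 h and at -0.70 and -0.74 at 18.5 h. Fatty acid and sterol synthesis had a median difference of 0.13 over 27 genes with 2 rises (3.18% over all genes), ACC1 and OLE1. OLE1, the fatty acid desaturase, was at 0.28 at 20.5 h and -0.86 at 18.5 h, and its difference of 1.14 was 0.89 after both adjustments. PHO89, a sodium-phosphate symporter, was the 1 rise of 17 phosphate genes (3.18% over all genes). It was at 1.66 at 20.5 h and -0.02 at 18.5 h. PHO84, the high-affinity phosphate transporter, was at -1.501 at 20.5 h and -2.46 at 18.5 h, a difference of 0.95.

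Among genes that moved inside the 2-fold band, 2 serve inositol lipids and moved apart. ITR1, the inositol transporter, was at 0.91 at 20.5 h and -0.78 at 18.5 h. PIS1, phosphatidylinositol synthase, was at -0.83 at 20.5 h and 0.98 at 18.5 h, the largest fall within the band. RCH1, a plasma membrane protein linked to calcium, had the largest rise within it, at 0.999 at 20.5 h and -0.91 at 18.5 h. GSC2, a catalytic subunit of glucan synthase, was at 0.71 at 20.5 h and -0.90 at 18.5 h. TPM1, tropomyosin, had a difference of -1.32, which became -0.78 after both adjustments.

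Outside the lists, the largest new rise was IRC15, a microtubule-associated protein, at 1.69 at 20.5 h and -0.96 at 18.5 h. The new falls also held TRM11, a subunit of a tRNA methyltransferase, with -1.37, EFM1, which methylates elongation factor 1A, with -1.37, and IRC7, a beta-lyase, with -1.41. The smallest sizes under the other settings were 0.98 for EFM1 and 0.84 for IRC7. At the edge of the threshold, GPH1 at 1.005 was among the smallest rises counted, and DLD1 at 0.996 was just outside.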

How the data were processed

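Per the labels, ScanAlyze 2.41 was used for the arrays. How background, dyes and spots were treated is not stated in the sources used here. The authors deposited 1 column per array of log ratios of the 2 channels, here taken as log2 because values piled up where ratios of small whole numbers fall on that scale (102 values at 111 places, against 75.5 interpolated from neighbours). The natural log gave 243 against 247.25 and log10 gave 1658 against 1668.5. The direction was taken from the channel order in the labels.

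Of 6400 probes, 5548 had 1 gene symbol and 852 none. All 5548 matched RefSeq assembly R64 by Entrez ID, and gene lengths came from that table. Of the 5288 lengths used 97.2% were multiples of 3, so not all of them are coding lengths. The deposited medians were 0.185 at 20.5 h and 0.216 at 18.5 h. Each array was centred on its median, and spots of one gene were averaged, with Python 3.11.15, pandas 2.3.3 and numpy 2.4.6. The arithmetic was tested on simulated data. With 1 array a side the number of arrays limits the precision, and 2-fold stood in for a test.

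The members and the 30 gene lists were chosen with earlier results of these data known. Genes named were the 15 largest differences in each direction, the 8 largest of each class, up to 4 of each list, and all regulators of carbon use and all genes of gluconeogenesis and the glyoxylate cycle. They came to 187, and exceptions are marked. Promoter sequences were not analysed here. Length adjustment subtracted a running median over 301 genes ordered by length, an alternative chosen after seeing the data.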

Additional observations from a re-analysis of the deposited data

How the results depend on the processing

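No paired analysis was possible because each time had 1 array and no replicate, and for the same reason no array could be left out. Of the 99 named genes past 2-fold, all 99 kept their sign and 73 stayed past 2-fold under the alternatives run on single genes, 7 for most and 6 for the 12 with a blank on an earlier array. Of 30 list medians 25 kept 1 sign under them, the exceptions being cell wall mannoproteins, aminoacyl-tRNA synthetases, glycogen and trehalose, purine biosynthesis and ribosome biogenesis. At 1.5-fold, 569 genes were higher (133 new, 115 continued, 230 returning, 7 crossing, 84 within the band) and 634 lower (151 new, 89 continued, 289 returning, 3 crossing, 102 within). At 3-fold, 49 were higher (24 new, 2 continued, 10 returning, 13 within) and 9 lower (1 new, 1 continued, 5 returning, 2 within). The counts followed the threshold by construction. Centring in runs of 40 probe numbers left 17 falls within the band, and adding the length adjustment left 12, with 26 rises within it. Adjusting for length alone left 21 new falls. One gene (1) crossed upward with runs of 40, with length, with both, and with levels set against the 0 h array. The cause of these shifts was not tested. As deposited, without centring, 156 genes were higher and 121 lower, a split of calls that leans less to rises than 168 and 108. Signal over background was not used, so dim spots could not be set apart.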

Other observations

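Purine biosynthesis genes had a median of -0.74 at 20.5 h, against -0.72 at 18.5 h, and none of 22 moved by 2-fold. GCV3, a subunit of the glycine cleavage system on that list, had the lowest difference, -0.81, and GUA1, GMP synthetase, had -0.74. Of 21 cell wall mannoprotein genes 0 moved by 2-fold, and TIR4, of a family expressed at low oxygen, had the highest difference, 0.84. Subtelomeric genes without a standard name, YFL065C, YEL075C and YPR196W, rose within the 2-fold band by 1.42, 1.41 and 1.37. Such genes lie in repeated families, and their spots may share signal.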
